A study of Homo sapiens with 8 samples.

Results

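Keratin transcripts were examined in HepG2 cells forced to express the epithelial transcription factor GRHL2. The keratins KRT7, KRT8, KRT18, KRT19, KRT23, KRT80, KRT10 and KRT20 were chosen by gene symbol, by a rule with no threshold on measured values but with earlier results of these data known. Of these 8 genes, 6 had a row among the 17561 genes of the expression table. KRT23 and KRT20 had none in the table used here and were not analysed. HepG2 is a human hepatocarcinoma cell line, and both groups were grown on gelatin in a medium with serum, insulin and dexamethasone. The pGRHL2 group received a plasmid for flag-tagged GRHL2 driven by an EEF1A1 promoter, which also encoded enhanced green fluorescent protein. The control group received the pcDNA3 vector, so that the groups differed in promoter and reporter as well as in GRHL2. RNA was harvested 48 h after transfection, and each group had 4 libraries, numbered 1 to 4. A single tumor-derived line limits the model, since its keratins are those of HepG2 and not of primary hepatocytes. The fluorescent protein served to monitor transfection, and no sorting of transfected cells is given in the methods, so fewer expressing cells and less RNA per cell cannot be told apart.

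Keratins are the intermediate filament proteins of epithelial cells. A type I keratin pairs with a type II keratin, and the filaments they form run between desmosomes and protect the cell from mechanical and toxic stress. In the liver, hepatocytes rely on type II KRT8 with type I KRT18, whereas cholangiocytes, the cells lining bile ducts, add type II KRT7 and type I KRT19. KRT7 and KRT19 are therefore used as biliary markers, also when hepatocytes acquire cholangiocyte features. The comparison asked whether these biliary keratins were higher, and the hepatocyte pair different, when GRHL2 was expressed.

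No keratin passed the test between plasmids. Among the 6 keratins analysed, 0 were called higher and 0 lower in pGRHL2 (limma, replicate number blocked, adjusted p under 0.05 over all genes), against 1.69% of all genes called higher and 0.501% called lower. Of the 6, 1 had an unadjusted p under 0.05, and so had 2802 of all 17561 genes. The 1 keratin was KRT7, the type II biliary keratin. On rlog-normalised values, which pull the differences of genes with few reads towards 0, it was 1.14-fold higher in pGRHL2. KRT7 had a limma 95% confidence interval of 1.05 to 1.24 on these values and a limma adjusted p of 0.097. Without the replicate block, its limma adjusted p was 0.00854, under the threshold, in a fit that called 10.4% of all genes higher. The keratins that hepatocytes use, KRT8 and KRT18, and the biliary keratin KRT19 differed by less than the spread between pairs.

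The values are log2 expression per transcript length (rlog-normalised counts put per length by the authors), and a difference of 1 is a doubling. Library medians lay between 6.71 and 6.73, and read depth was unknown, so counting error could not be given. In all 17561 genes, the pGRHL2 and pcDNA3 libraries of 1 number had the same mean as those of every other number. The libraries were hence compared as 4 pairs, the SD of a gene is the same in both groups, and a library that is high in one group is mirrored by a low one in the other. Transfected GRHL2 was at 6.61 to 7.25 in pcDNA3 and 16.22 to 16.87 in pGRHL2, as labelled in all 8 libraries. As for cell identity, 8 of 8 genes listed as hepatocyte markers were in the table, ALB being at 16.88. AFP, which the paper uses as a hepatoblast marker, was on the same list, at 17.11. Of 8 markers of stratified epithelium 1 was in the table, KRT13 at 1.13. Cholangiocyte markers other than keratins were present too, 6 of 8, from SPP1 at 13.74 and EPCAM at 11.61 down to CFTR at -1.07. Of 8 mesenchymal and blood markers 3 were, COL1A1, PECAM1 and PDGFRB at 5.82, 5.43 and 5.08. Rlog by design pulls the differences of genes with few reads towards 0, and how far it did so for any keratin was not tested.

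The keratins fell into an abundant set and a set at much lower values. KRT8, KRT19 and KRT18 had mean values of 14.75, 13.90 and 13.29 over the 8 libraries, at percentiles 99.9, 99.7 and 99.5 of all genes. KRT80, a type II keratin of differentiating epithelia, was at 8.45 (percentile 68.8), and KRT10, a type I keratin best known from the suprabasal epidermis, at 7.28 (percentile 55.1). KRT7 came last at 5.35, which is percentile 40.5. In pcDNA3, KRT8 was above KRT19 by 0.89 and KRT19 above KRT18 by 0.58 on the log2 scale. KRT18 was above KRT80 by 4.83, KRT80 above KRT10 by 1.10 and KRT10 above KRT7 by 2.07. The ranges over the 8 libraries did not overlap between any 2 neighbours in this order, which was the same with the longest transcript in place of the mean transcript length. The biliary keratins were thus far apart, KRT7 minus KRT19 being -8.58 in pcDNA3 and -8.54 in pGRHL2.

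**Figure D1:**
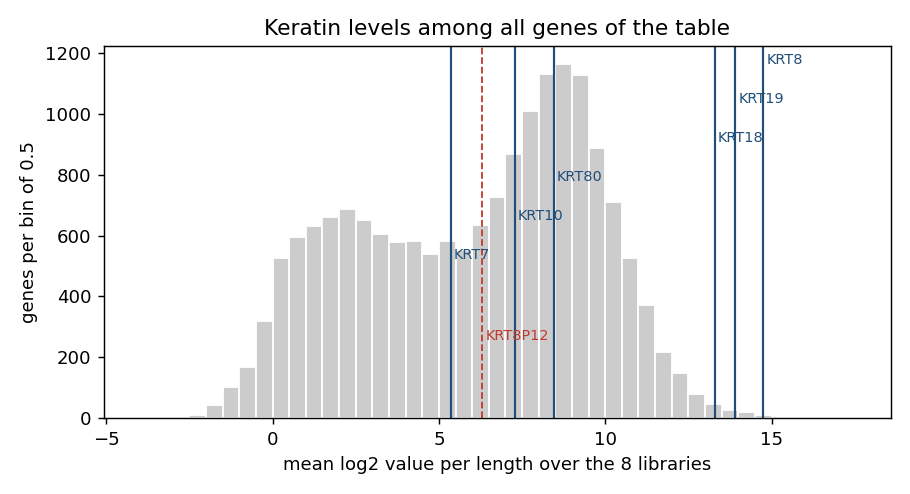
Mean log2 value per length of all 17561 genes in bins of 0.5 (grey bars, genes per bin), with lines at the 6 keratins and a dashed line at KRT8P12, a processed copy of KRT8. KRT8, KRT19 and KRT18 lie in the right tail above 13, and KRT7, at 5.35, is below KRT8P12, at 6.29.

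Per length, 12 of the 55 known type I and type II keratins on the list used had a row, and their values were summed on the linear scale to describe the keratin transcript pool. KRT8 made up 51.9% ± 1.44 of the pool in pcDNA3 (SD, n = 4 libraries) and 50.8% in pGRHL2 (49.2% to 52.6%). These SD are of values from which replicate means had been removed, so they do not hold the spread between replicates. KRT19 made up 28.0% ± 1.79 and 29.3% ± 1.78, and KRT18 18.7% ± 0.675 and 18.6% ± 0.664. These 3 genes held between 98.5% and 98.7% of the pool in every library. KRT80 held 0.658% in pcDNA3 and KRT7 0.0733%, which was 0.0789% in pGRHL2. Type I transcripts were close to type II transcripts in amount, with a log2 difference (type I minus type II) from -0.25 to -0.05 in pcDNA3 and from -0.20 to 0.00 in pGRHL2. The whole pool was 0.53% ± 0.03 of the summed values of all genes in pcDNA3 and 0.56% ± 0.04 in pGRHL2.

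**Figure D2:**
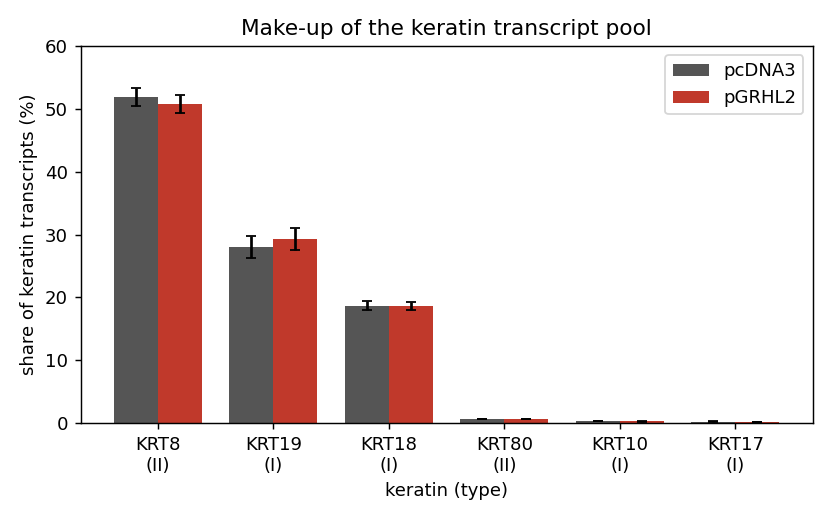
Share of the summed keratin transcripts (y axis, %) held by the 6 most abundant keratins in pcDNA3 (grey) and pGRHL2 (red), with type I or II in brackets. Bars are means and error bars SD over 4 libraries, without the spread between replicates, whose means had been removed. The bars of the 2 plasmids lie within about 1 such SD of each other for KRT8, KRT19 and KRT18.

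The KRT7 gene spans chr12:52232520-52252186 (plus strand, hg38). Its log2 values in pcDNA3 libraries 1 to 4 were 5.25, 5.31, 5.18 and 5.27, and in pGRHL2 libraries 1 to 4 they were 5.45, 5.38, 5.52 and 5.42. Every pGRHL2 library was above every pcDNA3 library, which 13.4% of all genes also showed. Because pair means are equal, this is the same fact as all 4 pairs being higher and adds nothing to it. The mean difference was 0.19 ± 0.12 (SD over 4 pairs), the pairs being at 0.20, 0.07, 0.34 and 0.15. The exact two-sided sign-flip test gave p = 0.13, the smallest that 4 pairs allow. The limma adjusted p of 0.097 ranged from 0.0675 to 0.321 in the other fits with the replicate block. Pair 3 had the largest difference of KRT7 and also the largest of GRHL2 (10.26 on the log2 scale, against 8.97, 9.51 and 9.18 in pairs 1, 2 and 4), and with 4 pairs no relation was tested. KRT7 shares 7.85% of its exon bases with KRT7-AS and KRT87P, and counting was without strand. KRT7-AS itself was at 0.91, with differences from -0.05 to 0.05.

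KRT19 (chr17:41523617-41528308, minus strand) is the type I biliary keratin and the smallest keratin. Its values were 13.74, 14.07, 13.83 and 13.67 in pcDNA3 libraries 1 to 4 and 14.07, 13.74, 13.97 and 14.14 in pGRHL2 libraries 1 to 4. The groups overlapped because pair 2 ran the other way, with differences of 0.32, -0.34, 0.14 and 0.48. Their mean was 0.15 ± 0.35 (SD over 4 pairs), and the limma fit gave an adjusted p of 0.569 and a 95% confidence interval of -0.10 to 0.40. The SD of its pair differences was larger than that of 98.1% of the 52 other genes within 0.5 of its level, whose median SD was 0.10. Leaving out pair 2 gave a mean of 0.31 (adjusted p in limma 0.0811), leaving out pair 4 gave 0.04 (0.893) and leaving out pair 1 gave 0.09 (0.888), so that the value of KRT19 moved in both directions with single pairs.

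**Figure D3:**
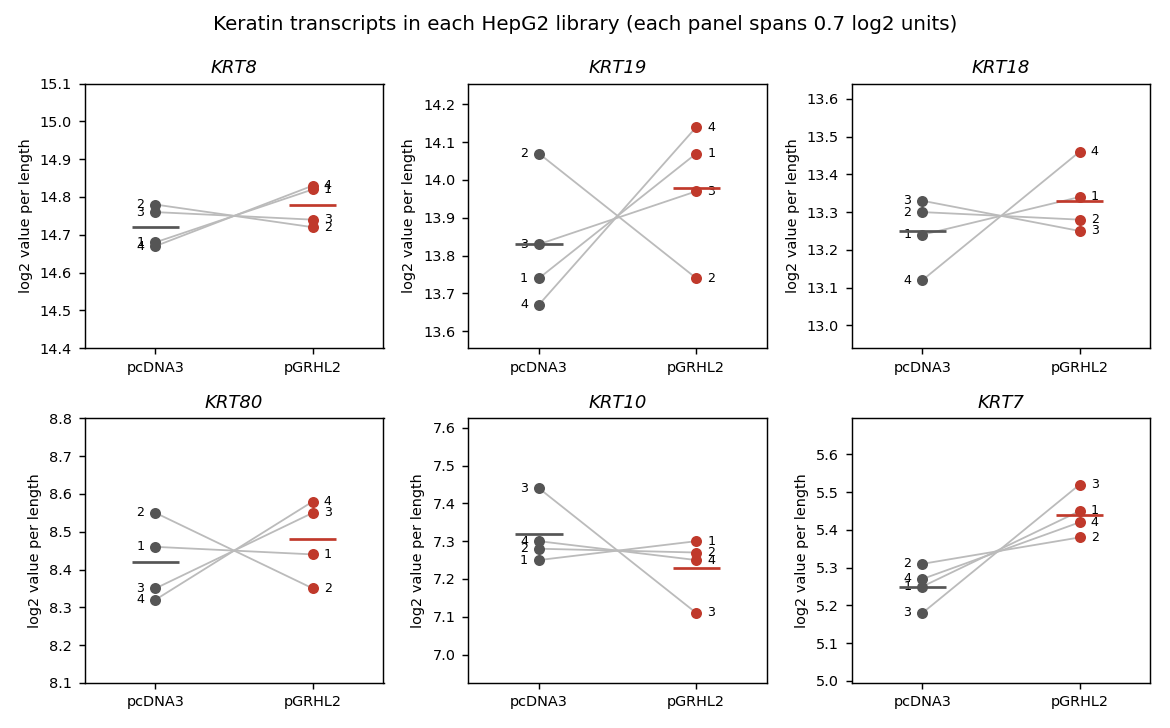
Log2 value per length (y axis) of the 6 keratins in the 4 pcDNA3 (grey) and 4 pGRHL2 (red) libraries, numbered by pair and joined by a line, with group means as bars and each panel spanning the same 0.7 log2 units. KRT7 is higher in pGRHL2 along all 4 lines, which with equal pair means is the same as no overlap of groups. The lines of each of the other 5 run in both directions.

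KRT8 and KRT18, which form the filament pair of hepatocytes, are neighbours, KRT8 at chr12:52897187-52949954 (minus strand) and KRT18 at chr12:52948871-52952906 (plus strand). KRT8 was at 14.68, 14.78, 14.76 and 14.67 in pcDNA3 libraries 1 to 4 and at 14.82, 14.72, 14.74 and 14.83 in pGRHL2 libraries 1 to 4. The groups overlapped, the mean difference was 0.05 ± 0.11 (SD over 4 pairs), and limma gave an adjusted p of 0.609 with an interval of -0.04 to 0.15. KRT18 was at 13.24, 13.30, 13.33 and 13.12 in pcDNA3 and at 13.34, 13.28, 13.25 and 13.46 in pGRHL2. The KRT18 groups overlapped too, at a mean difference of 0.08 ± 0.19 (adjusted p in limma 0.607, interval -0.06 to 0.23), and without pair 4 it was -0.0023. Both were higher in pairs 1 and 4 and lower in pairs 2 and 3. KRT18 minus KRT8 stayed between -1.55 and -1.37 on the log2 scale in the 8 libraries, and differed between plasmids by 0.03 ± 0.11. An annotated KRT8 transcript runs across the start of KRT18, and 17.1% of KRT18 exon bases are shared with it on the opposite strand. Under counting without strand, reads over those bases cannot be assigned to one gene.

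Processed copies of KRT8 and KRT18 are scattered over the genome, and 18 of them had a row in the table. They are described here since they bear on how reads of the hepatocyte pair were counted. The following are 60 coding bases of KRT18 (chr12:52949212-52949271, plus strand) and the same stretch of KRT18P4 (chr20:49956781-49956840, plus strand), from GENCODE release 44 on hg38, with bases that differ between gene and copy in capitals. KRT18P4 had the highest value among the copies of KRT18, as KRT8P12 had among those of KRT8.
KRT18: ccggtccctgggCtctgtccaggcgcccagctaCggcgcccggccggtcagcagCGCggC
KRT18P4: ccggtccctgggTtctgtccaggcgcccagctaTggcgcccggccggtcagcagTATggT

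The stretches differ at 6 of 60 bases, and over the aligned transcripts KRT8P12 was 90.6% identical to KRT8 and KRT18P4 92.0% identical to KRT18. Of all 50-base windows of the KRT8 transcript, 39.2% occurred in transcripts of other genes, as did 52.8% of those of KRT18, 11.7% of KRT7 and 1.8% of KRT19. At the read length of 150 bases, the share was 0 for KRT8, KRT19, KRT80 and KRT10 (0.0% of windows). It was 12.3% for KRT18, all shared with KRT8, and 5.2% for KRT7, all shared with KRT7-AS. Windows were taken from a single annotated transcript of each gene. The one used for KRT8 leaves out its overlap with KRT18, which covers 7.63% of KRT8 exon bases over all its transcripts. The share of 0 for KRT8 therefore does not cover reads from those bases. KRT8P12 was at 6.29 and KRT18P4 at 2.91, against 14.75 and 13.29 for the genes. The differences of KRT8P12 in pairs 1 to 4 were -0.04, 0.07, -0.02 and 0.02, while those of KRT8 were 0.14, -0.06, -0.02 and 0.16. Of the 18 copies, 0 were called in either direction and 1 had an unadjusted p under 0.05, against 2802 of all 17561 genes.

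KRT80 (chr12:52168996-52192014, minus strand) was at 8.46, 8.55, 8.35 and 8.32 in pcDNA3 libraries 1 to 4. In pGRHL2 libraries 1 to 4 it was at 8.44, 8.35, 8.55 and 8.58. The groups overlapped at a mean difference of 0.06 ± 0.21 (SD over 4 pairs, adjusted p in limma 0.797), which was -0.01 without pair 4. KRT10 (chr17:40818117-40822614, minus strand) was the only one of the 6 with a mean difference below 0. Its values were 7.25, 7.28, 7.44 and 7.30 in pcDNA3 and 7.30, 7.27, 7.11 and 7.25 in pGRHL2, where library 3 was the lowest. The groups overlapped at a mean difference of -0.09 ± 0.17 (adjusted p in limma 0.617, and 0.982 without pair 3). KRT10-AS1, which shares 2.82% of the KRT10 exon bases from the other strand, was at 8.20 and differed by 0.14, 0.06, 0.05 and 0.13 in pairs 1 to 4, with a limma adjusted p of 0.453.

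The 4 pairs did not move alike. Of the 12 keratins in the table, 10 were higher in pGRHL2 in pair 1, 3 in pair 2, 6 in pair 3 and 10 in pair 4, whereas 51.5% to 52.3% of all genes were higher in each pair. In pair 2, KRT7 was the only one of the 6 keratins examined that was higher, by 0.07. The listed hepatocyte markers, with AFP among them, went the other way in pair 2. There 8 of 8 were higher, with a median difference of 0.33, against 4, 3 and 3 of 8 in pairs 1, 3 and 4. Their summed log2 level was 18.09 to 18.29 in pcDNA3 and 18.18 to 18.39 in pGRHL2. Of the cholangiocyte markers other than keratins, 6 of 8 had a row, 5 of them were higher in pair 2, and their sum was 14.00 to 14.14 and 14.07 to 14.21. The part of these markers in the keratin differences was not tested.

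**Figure D4:**
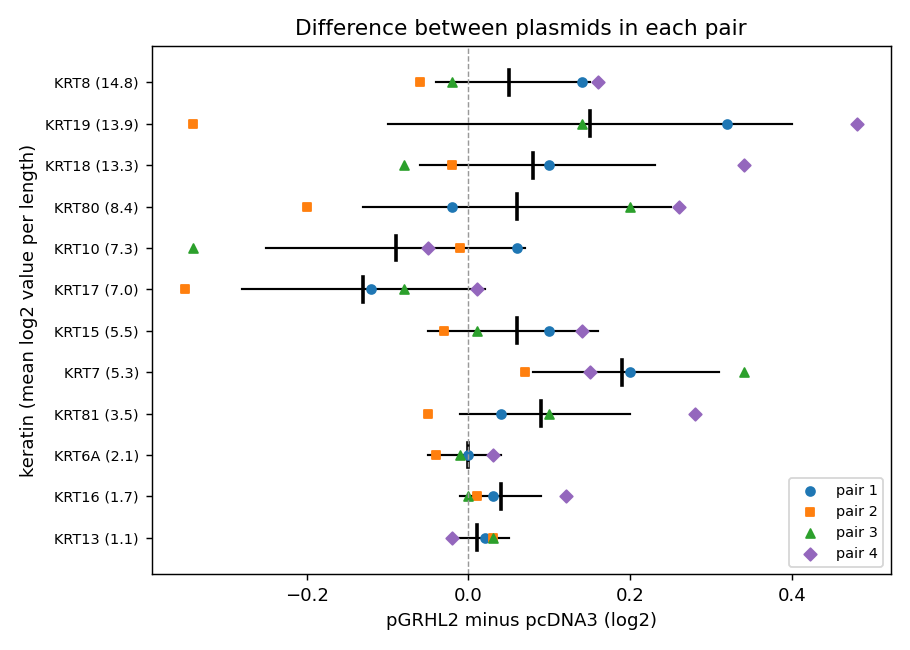
Difference between plasmids (x axis, pGRHL2 minus pcDNA3, log2) in each of the 4 pairs for the 12 keratins in the table, ordered by mean level (in brackets). Thick ticks are means, horizontal lines limma 95% confidence intervals and symbols the pairs, of which pair 2 lies left of 0 for 9 of 12 keratins and pair 4 right of 0 for 10.

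Biliary and hepatocyte keratins were also set against each other within each library. The mean of KRT7 and KRT19 minus the mean of KRT8 and KRT18 was -4.46, -4.35, -4.54 and -4.42 in pcDNA3 libraries 1 to 4 and -4.32, -4.44, -4.25 and -4.36 in pGRHL2 libraries 1 to 4. The groups overlapped, and the difference between plasmids was 0.10 ± 0.16 (SD, n = 4 pairs), higher in 3 of 4 pairs. It was 0.0384 without pair 3 and 0.1669 without pair 2. KRT7 minus KRT8 differed by 0.14 ± 0.16, with pair differences of 0.06, 0.13, 0.36 and -0.01. KRT7 minus KRT19 differed by 0.04 ± 0.33, so that KRT7 was not set apart from KRT19 beyond the spread between pairs.

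The other keratins gave no call either. Over all 12, 0 were called, against 1.69% of all genes called higher and 0.501% called lower. The median log2 FC was 0.055 (0.002 over all genes). Groups did not overlap for 1 of the 12, with pGRHL2 higher, as for 13.4% of all genes. Of 7 type I keratins, 5 had a log2 FC above 0, as had 4 of 5 type II keratins and 51.5% of all genes. KRT17, a type I keratin of basal and stressed epithelia, differed by -0.13 ± 0.15 (adjusted p in limma 0.370), being lower in 3 of 4 pairs. KRT15, KRT81, KRT6A, KRT16 and KRT13 were at 5.54, 3.52, 2.07, 1.69 and 1.13. Their log2 FC lay within 0.1 of 0.

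Genes whose proteins bind keratin filaments were described next. All 11 linkers and desmosomal plaque proteins on the list were in the table. Of them, 0 were called in either direction, against 1.69% of all genes called higher and 0.501% called lower. A log2 FC above 0 was found in 9, against 51.5% of all genes. The median log2 FC was 0.049 (0.002 over all genes). PPL (periplakin), which links keratins to desmosomes, was at 7.07 in pcDNA3 and 7.24 in pGRHL2, and differed by 0.18 ± 0.19 (SD over 4 pairs, adjusted p in limma 0.293). PLEC (plectin), a large linker between filament systems, differed by 0.16 ± 0.23 (adjusted p in limma 0.428). In pair 3, where the KRT7 difference was the largest, 11 of the 11 genes were higher in pGRHL2, against 6, 7 and 4 in pairs 1, 2 and 4. Of all genes, 51.6% were higher in pair 3. The differences of the linkers in that pair ran from 0.03 to 0.51, and a relation to KRT7 was not tested. Among 10 other intermediate filament genes in the table, out of 15 listed, 0 were called, 3 had an unadjusted p under 0.05 and 3 had groups that did not overlap with pGRHL2 higher. The 3 with groups apart, named after their values were seen, were GFAP, PRPH and NEFH. They had low mean values of 1.88, 0.77 and -0.61, with log2 FC of 0.09, 0.03 and 0.03. Across all genes, 13.4% had groups apart in that direction, and 2802 of 17561 had an unadjusted p under 0.05. The 3 filament genes with an unadjusted p under 0.05 were GFAP, NEFH and INA. INA, at a mean value of 4.89, had groups that overlapped and the largest log2 FC of these genes, 0.25. Without the replicate block, 4 of the 10 filament genes were called higher, namely GFAP, PRPH, INA and NEFH, against 10.4% of all genes. The nuclear lamins LMNB2 and LMNB1 differed by -0.11 ± 0.19 and -0.10 ± 0.22 (adjusted p in limma 0.509 and 0.609). Across all genes, groups that did not overlap were found with pGRHL2 lower in 10.5%, and 0 of the keratins, linkers and other filament genes were among them.

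The genes most like KRT7 and KRT19 in their 4 pair differences were named by the root mean square distance, among 10857 other genes with a mean of at least 5. For KRT7 these were RIN2, RGL3 and CPM, at distances of 0.022, 0.026 and 0.031, and their limma adjusted p were 0.0683, 0.142 and 0.113. For KRT19 the nearest were SOX4 and ZMIZ1-AS1, at distances of 0.082 and 0.085. SOX4 differed by 0.29, -0.19, 0.15 and 0.42 in pairs 1 to 4. Each likeness rests on 4 numbers compared over all those genes and is given as a description.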

How the data were processed

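mRNA of 8 HepG2 libraries was sequenced as paired reads of 150 bases. Per the study's methods, the authors used Hisat2 for mapping to hg38 and HTSeq (union mode, exons, no strand) for counting, removed genes with few reads, and put DESeq2 rlog values per mean transcript length. The submitters' processing notes list HISAT2 2.2.1, HTSeq 0.9.1 and DESeq2 1.40.2. The deposited values are named FPKM but are on a log2 scale, since 3.71% are below 0 and, among 2371 genes with a range under 0.05, values fell with a slope of -0.84 on log2 mean transcript length. Replicate means had been removed, a step the methods do not give (pair means equal within 1.5e-13 in all genes). This makes same-numbered libraries pairs, and the check by correlation void. The block leaves 3 fewer residual degrees of freedom, and limma borrows spread across genes.

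Limma 3.58.1 (R 4.3.3; lmFit, eBayes with trend, replicate number as a block) was fitted to all 17561 genes with Benjamini-Hochberg adjustment at 0.05, after a check on simulated data. One stray character was removed. The libraries are separate samples by the labels and the study calls them biological replicates. Coordinates, exon overlaps and transcript windows came from GENCODE release 44 (hg38), where 99.86% of symbols matched. The keratins, lists and tests were chosen with earlier results of these data known. Named were all 6 keratins with rows and GRHL2. From each list of keratins, linkers and other filament genes, called genes were named, or otherwise the 2 largest changes with a mean of at least 5. The 3 genes nearest to KRT7 and to KRT19 and the copies and antisense genes were added, except for 1 of these genes and 1 sequence that are not reported here. KRT15, KRT81, KRT6A, KRT16 and KRT13 were named for completeness of the keratins.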

Additional observations from a re-analysis of the deposited data

Results flagged for a closer look

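Of 33 keratin, linker and other filament genes examined, 2 had a pair far from the other 3 by Dixon's criterion at 95%, and chance gives about 1 in 20. Both are linkers, were named because of this, and neither is a keratin. DST, which links filaments to hemidesmosomes, was 0.5145 higher in pGRHL2 in pair 3, while the other pairs had a median of -0.05. PKP2, a plakophilin of the desmosomal plaque, stood at -0.1836 in pair 4 and the other pairs at a median of 0.09. Of the keratins, 0 met this limit.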

How the results depend on the processing

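Without the replicate block, limma called 1 keratin higher, KRT7 (adjusted p of 0.00854), and 4 other intermediate filament genes higher in place of 0. These were GFAP, PRPH, INA and NEFH (adjusted p of 0.0115, 0.0255, 0.0303 and 0.0344), named after their values were seen. Their mean values were 1.88, 0.77, 4.89 and -0.61, and their log2 FC 0.09, 0.03, 0.25 and 0.03. That fit called 1821 higher and 1427 lower genes, against 297 and 88 with the block, since it counts the removed replicate means as free values. The counts of keratins, linkers and other filament genes called were 0 in each direction in every other fit, which were robust eBayes, eBayes without trend, arrayWeights, 2 rescalings, a mean value of at least 5, an adjusted p under 0.01 and leaving out each replicate. Of 80 single-keratin values under settings other than leaving out a replicate, 78 kept direction and side of the threshold, and of 48 without a replicate 45 did. KRT6A, at -0.0046, turned to 0.0089 when library totals without GRHL2 were made equal, which follows from the shift of 0.0135 that this gives every gene, and it ranged from -0.0153 to 0.0074 when a replicate was left out. KRT18 then ranged from -0.0023 to 0.1379 and KRT80 from -0.0062 to 0.1474, both lowest without replicate 4. Divided by the longest transcript, the KRT8 share of the pool in pcDNA3 was 46.6% and that of KRT18 21.9%. Rescaling to the same median moved all log2 FC by -0.0043. Biliary minus hepatocyte keratins ranged from 0.0384 to 0.1669 when a replicate was left out. Read depth was unknown, which limits what can be said of the genes at low values.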
